A study of Mus musculus with 12 samples.

Results

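The genes described here are 10 mouse genes that stressed cells transcribe within minutes, chosen by name as signs of stress from tissue digestion and sorting. They comprise 7 immediate early genes, Fos, Fosb, Jun, Junb, Egr1, Atf3 and Ier2, and 3 heat shock genes, Hspa1a, Hspa1b and Dnajb1. They are 10 of the 49585 genes counted, and all 10 are among the 18648 genes that were tested after a filter on low counts. Their Ensembl identifiers were matched to symbols through the GENCODE M21 annotation of GRCm38, the assembly that is also called mm10.

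Immediate early genes are transcribed from factors already present in the cell, so their mRNA appears without new protein synthesis and is soon degraded. Fos, Fosb, Jun and Junb encode leucine zipper subunits that pair to form the transcription factor AP-1, Egr1 encodes a zinc finger factor, and Atf3 encodes a stress-induced member of the ATF/CREB family. Heat shock genes are switched on by the heat shock factor HSF1 when proteins unfold: Hspa1a and Hspa1b encode the inducible HSP70 chaperone, and Dnajb1 encodes an HSP40 co-chaperone that delivers clients to it. Enzymatic digestion of tissue and cell sorting are known to induce both groups in many cell types.

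RNA-seq libraries had been made from 4 cell populations of the bone marrow of wild-type male C57BL/6 mice aged 8 to 10 weeks at steady state, with 3 libraries per population and 2000 sorted cells per library. The populations were Itga8+ MSCs, gated as Itga8+Alcam+Sca-1-, Itga8- Alcam+ BLCs, a fraction of bone-lining cells labelled as osteoblasts, Sca-1+ MSCs, gated as Alcam-Sca-1+, and CD51+CD140a+ MSCs. All 4 gates excluded haematopoietic, erythroid and endothelial cells by CD45, Ter119 and CD31. The methods state that every population but CD51+CD140a+ MSCs was released from flushed bone fragments by warm collagenase I with DNase, whereas that population came from flushed marrow digested with Accumax at a lower temperature for a shorter time. The population and its preparation therefore cannot be told apart in any comparison with CD51+CD140a+ MSCs, and no library of undigested or unsorted cells was analysed here. The labels do not say whether the 3 libraries came from separate mice or pools, so p-values measure the spread between these libraries, which may be technical. In such bulk libraries, fewer cells of a kind and less RNA per cell cannot be told apart.

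The libraries held 17580677 to 31332475 counted reads. The transcripts of the surface markers used for sorting matched the gates in part. Itga8 ran from 35.2 to 199 CPM, read counts scaled to the library size after TMM normalization, in Itga8+ MSCs and from 0.398 to 4.17 CPM in Itga8- Alcam+ BLCs, and Ly6a, which encodes Sca-1, averaged 636 CPM in Sca-1+ MSCs and 1.42 to 27.5 CPM elsewhere. Itga8 was also at 53.1 to 82.9 CPM in CD51+CD140a+ MSCs, within the range of Itga8+ MSCs, and Alcam reached at most 5.82 CPM in any library. Pdgfra, which encodes CD140a, averaged 874 CPM in Sca-1+ MSCs and 767 CPM in CD51+CD140a+ MSCs, and Itgav, which encodes CD51, 134 and 164 CPM, so neither transcript was particular to the population sorted on them. Lepr averaged 6112 CPM in CD51+CD140a+ MSCs and Dmp1 averaged 1871 CPM in Itga8- Alcam+ BLCs, against at most 201 and 7.32 CPM in the other populations. A pair of libraries, Itga8+ replicate 2 and Itga8- replicate 3, stood apart by their share of mitochondrial counts, 0.546% and 0.359% against 0.0570% to 0.0996% in the other 10. Pearson's r of log2 CPM with the replicates was 0.855 and 0.905 for the first and 0.919 and 0.961 for the second, against 0.962 and 0.958 between the other libraries of each population. In Itga8+ replicate 2 the summed level of 5 neutrophil markers was 15763 CPM against 2490 and 6111 CPM in its replicates, with none of the 5 at 0. That sum was 4941 to 7402 CPM in the Itga8- Alcam+ libraries and 907 to 1873 CPM in the Sca-1+ and CD51+CD140a+ libraries, so each library of the Alcam+ populations lay above each of the others. In Itga8+ replicate 2 other summed markers also lay outside its replicates, at 5840 CPM against 813 and 1956 CPM for 3 tendon markers, 1555 CPM against 118 and 130.1 CPM for 6 erythroid markers, and 3044 CPM against 292 and 774 CPM for 7 myeloid and lymphoid markers, with Cd3e at 0. The sum of 7 osteoblast markers was lower in both libraries than in their replicates, at 674 CPM against 6946 and 7952 CPM in Itga8+ replicate 2, and at 36721 CPM against 84539 and 114844 CPM in Itga8- replicate 3. Both libraries were also shifted towards short transcripts. Among genes of at least 10 CPM on average, those with under 1500 bases of exon were higher than in the other libraries of the group by a median log2 difference of 1.73 in Itga8+ replicate 2 and 0.99 in Itga8- replicate 3, and those with over 5000 bases were lower, at medians of -0.87 and -0.58. Itga8- replicate 2 was shifted as far the other way, at -1.03 and 0.61, and Itga8+ replicate 3 was at -1.35 and 0.58. In the 6 Sca-1+ and CD51+CD140a+ libraries the same medians lay between -0.19 and 0.30. The part of these library properties in the results below was not tested, and member calls that change without the pair are given both ways.

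The promoters of the HSP70 genes are shown to compare these genes before their start sites, which has no bearing on how reads were split between them. RefSeq promoters of GRCm38.p6, 250 bases before the start site, were matched for 8 of the 10 genes, not for Egr1 and Ier2. Hspa1a starts at chr17:34972156 and Hspa1b at chr17:34959238, both on the minus strand, and each is a gene of 1 exon. Capitals mark a heat shock element, searched as GAANNTTC on both strands from 250 bases before to 50 bases after each start site, which begins 104 bases before the start site in both.
Hspa1a, chr17:34972157-34972406, minus strand: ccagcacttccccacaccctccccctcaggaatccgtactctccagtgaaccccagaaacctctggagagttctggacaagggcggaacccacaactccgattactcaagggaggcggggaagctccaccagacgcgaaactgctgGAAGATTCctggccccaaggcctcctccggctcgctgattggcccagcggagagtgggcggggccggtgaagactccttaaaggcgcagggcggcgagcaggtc
Hspa1b, chr17:34959239-34959488, minus strand: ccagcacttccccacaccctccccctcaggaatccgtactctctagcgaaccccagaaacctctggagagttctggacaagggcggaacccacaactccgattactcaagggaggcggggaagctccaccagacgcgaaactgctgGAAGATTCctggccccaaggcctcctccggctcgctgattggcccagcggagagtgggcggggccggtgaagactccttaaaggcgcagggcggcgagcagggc
The 250 bases were 98.8% identical and differed by C44T, T47C and T249G, counted from 1 at the 5' end with the Hspa1a base first. The element was also in the promoter of Jun, 128 bases before its start site, and in 7.86% of all 32851 promoters of the same length.

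Fos is shown for comparison, as the member with the highest mean TPM, a level scaled for exon length, in each population. It has an exon total of 2352 bases in 4 blocks on chromosome 12 and lies at chr12:85473890-85477273 on the plus strand. Capitals mark the core of a cyclic AMP response element, TGACGT, and a TATAAA box.
Fos, chr12:85473640-85473889, plus strand: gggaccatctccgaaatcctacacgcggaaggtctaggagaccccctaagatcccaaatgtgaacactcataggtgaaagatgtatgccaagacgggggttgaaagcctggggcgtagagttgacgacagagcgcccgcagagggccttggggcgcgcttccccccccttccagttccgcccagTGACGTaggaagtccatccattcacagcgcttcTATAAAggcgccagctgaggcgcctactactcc
TGACGT was also in the promoter of Atf3 and in 7.51% of all promoters, and TATAAA also in that of Junb and in 8.32%. TTCNNGAA, the CArG box bound by serum response factor, the AP-1 site TGANTCA, the EGR site GCGTGGGCG and a run of 3 heat shock units were in none of the windows searched for the 8 genes, which says only that these letters are not in these bases.

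All 10 genes were transcribed in all 12 libraries, with at least 526 counts each. Summed over the 10 genes, they took 1.93% to 2.35% of all counts in the CD51+CD140a+ libraries and 0.842% to 1.05% in the 9 libraries from bone fragments. The ranges did not overlap, and the sum was about as high in each of the bone-fragment populations, at 9633 ± 858 CPM for Sca-1+ MSCs, 10587 ± 1878 CPM for Itga8- Alcam+ BLCs and 10069.8 ± 784 CPM for Itga8+ MSCs (SD, n = 3), against 19589.5 ± 2961 CPM for CD51+CD140a+ MSCs. By TPM, Fos ranked between 8 and 32 among all genes of a library, and Hspa1a and Hspa1b ranked between 1034 and 5832. The HSP70 pair was below Fos, Jun, Junb and Egr1 on that scale in all libraries, and the order of the populations differed between the genes.

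**Figure D1:**
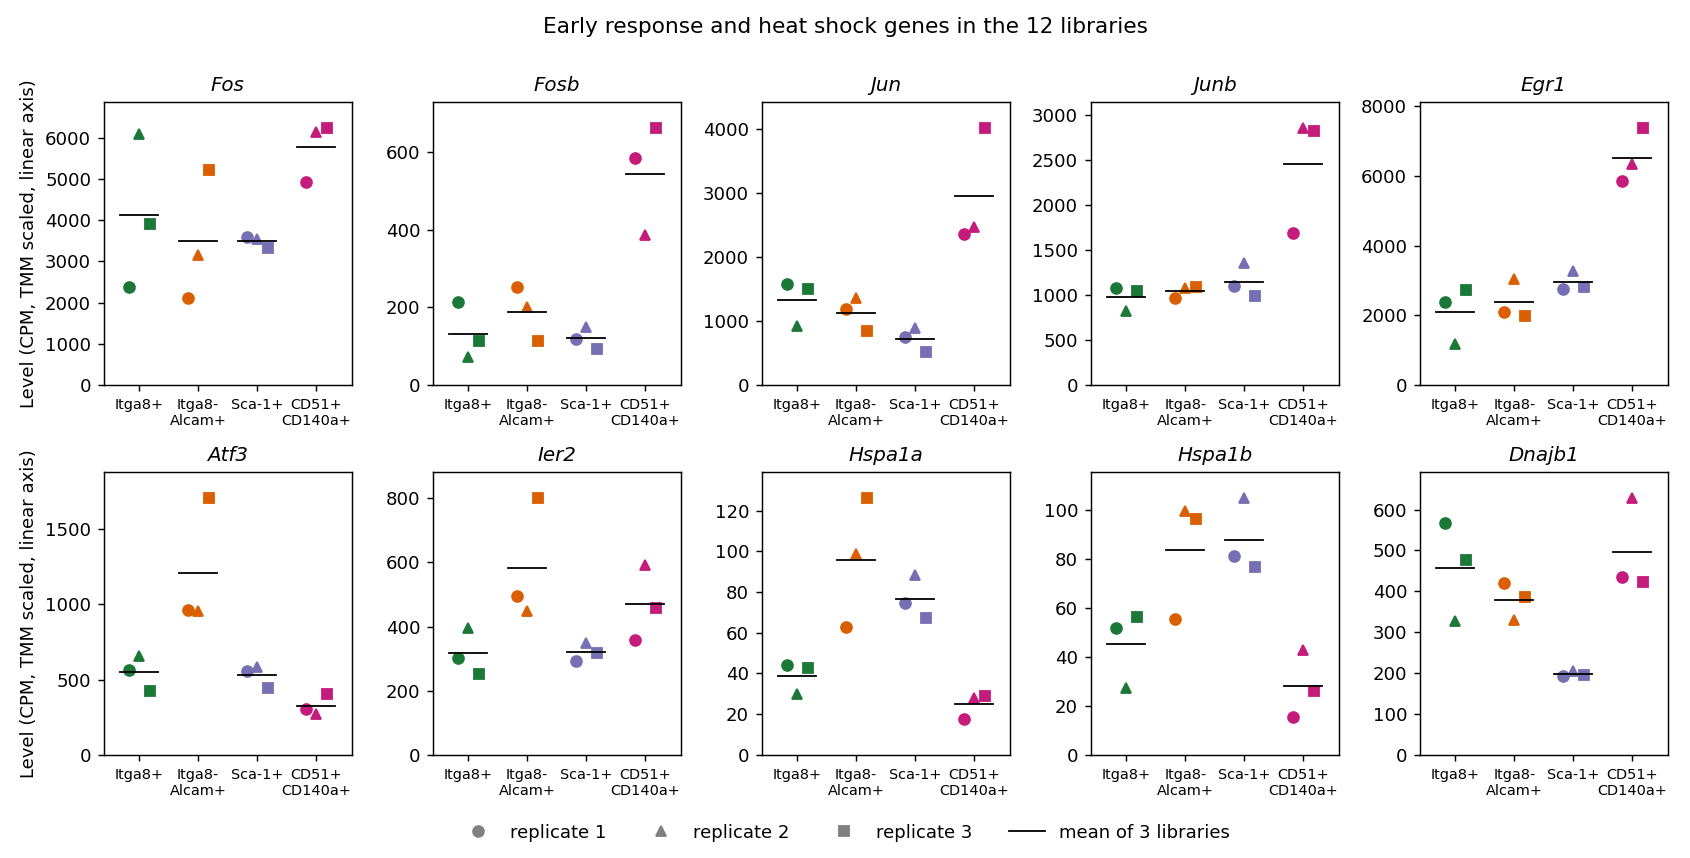
Level of each gene in CPM (TMM scaled, linear axes starting at 0) in the 12 libraries, by population; marker shapes give the replicate and black lines the mean of 3 libraries. Fosb, Jun, Junb and Egr1 were higher in every CD51+CD140a+ library than in any other library, Atf3 was highest in Itga8- Alcam+ BLCs, and the mean levels of Hspa1a and Hspa1b were lowest in CD51+CD140a+ MSCs. The share of all genes whose libraries separate in this way was not counted.

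The populations were compared in pairs, and the mean of the 3 bone-fragment populations was compared with CD51+CD140a+ MSCs, by edgeR's quasi-likelihood test over all 18648 genes. A gene was called at a Benjamini-Hochberg adjusted p under 0.1 with a fold change above 2. For the averaged bone-fragment populations, 3 members were called higher than in CD51+CD140a+ MSCs, where 15.9% of all genes were, and 4 were called lower, where 15.3% of all genes were. For Itga8+ MSCs over CD51+CD140a+ MSCs the counts were 0 higher (background 21.2%) and 4 lower (background 14.3%). For Itga8- Alcam+ BLCs over CD51+CD140a+ MSCs they were 3 higher (background 20.4%) and 4 lower (background 14.9%), and for Sca-1+ MSCs over CD51+CD140a+ MSCs 2 higher (background 11.2%) and 5 lower (background 9.30%). These comparisons share the CD51+CD140a+ libraries. Itga8+ MSCs over Itga8- Alcam+ BLCs had 0 higher (background 1.66%) and 2 lower (background 2.16%), Itga8+ MSCs over Sca-1+ MSCs had 1 higher (background 12.9%) and 0 lower (background 8.89%), and Itga8- Alcam+ BLCs over Sca-1+ MSCs had 1 higher (background 14.5%) and 0 lower (background 11.9%). The shares of members called lower than in CD51+CD140a+ MSCs exceeded the background in each of those comparisons. The shares called higher also did so, except in Itga8+ MSCs, but they count Hspa1a and Hspa1b, between which the split of reads is uncertain. The share called lower in Itga8+ MSCs than in Itga8- Alcam+ BLCs was above its background too. In both comparisons of Alcam+ populations with Sca-1+ MSCs, 1 call among 10 members is below the background. The 2 calls between Itga8+ MSCs and Itga8- Alcam+ BLCs were lost without the pair of libraries that stood apart.

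**Figure D2:**
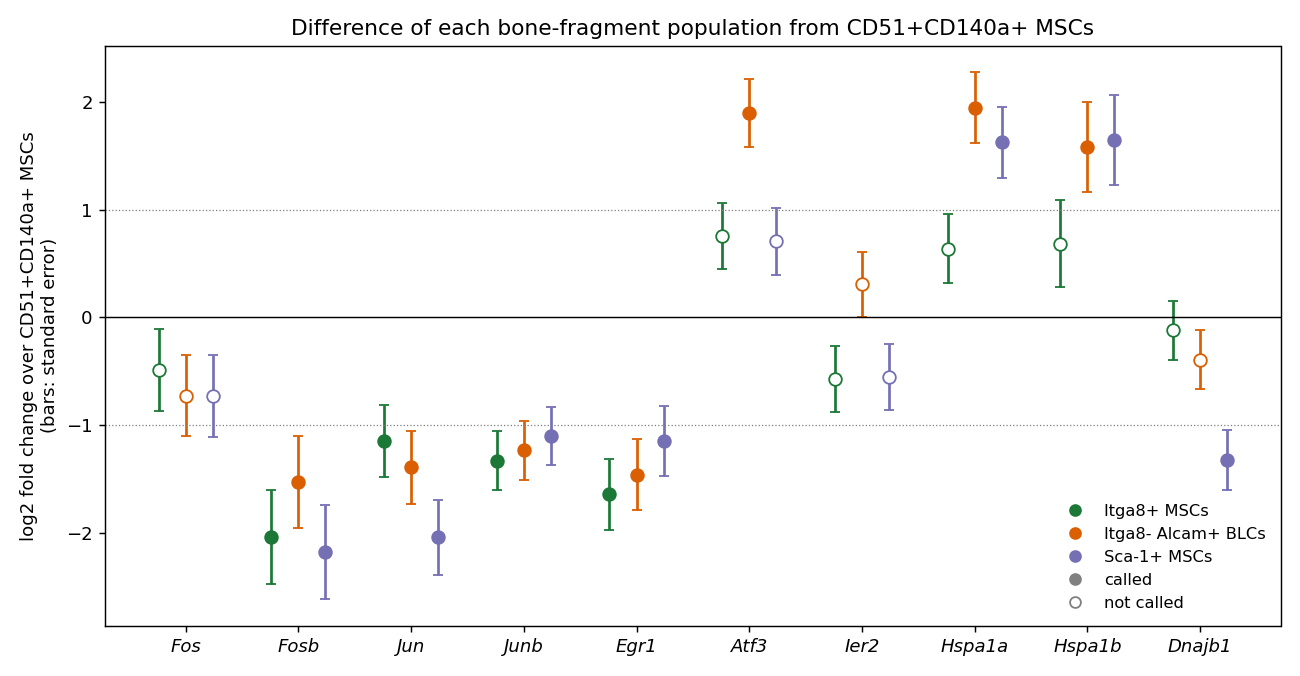
Fitted log2 fold change of each gene in the 3 bone-fragment populations over CD51+CD140a+ MSCs, with standard errors as bars; filled points were called, open points were not, and dotted lines mark a fold change of 2 either way. Fosb, Jun, Junb and Egr1 were called lower in all 3 populations, Hspa1a and Hspa1b were called higher in Itga8- Alcam+ BLCs and Sca-1+ MSCs, and Fos and Ier2 were called in none.

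Fosb, Jun and Junb, which encode AP-1 subunits, were higher in CD51+CD140a+ MSCs than in each of the other populations. Fosb, on the minus strand at chr7:19302696-19310051, encodes a FOS family subunit. It was at 583, 386 and 662 CPM in CD51+CD140a+ MSCs, at 213, 71.5 and 113 CPM in Itga8+ MSCs, at 252, 201 and 114 CPM in Itga8- Alcam+ BLCs and at 119.6, 149 and 93.2 CPM in Sca-1+ MSCs, with replicates in the order of their numbers. Every CD51+CD140a+ library lay above the 9 others, which overlapped among themselves. The share of all genes whose libraries separate without overlap was not counted, for this gene or for the members below. The log2 fold change over CD51+CD140a+ MSCs was -2.03 ± 0.43 (SE) in Itga8+ MSCs, -1.52 ± 0.43 in Itga8- Alcam+ BLCs and -2.17 ± 0.44 in Sca-1+ MSCs, with edgeR adjusted p of 0.00457, 0.0188 and 0.00399. The averaged difference was -1.91 ± 0.31 (edgeR adjusted p = 0.000689), the widest downward difference among the members.

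Jun, a gene of 1 exon at chr4:95049034-95052222, encodes the main partner of FOS proteins. Its levels were 2371, 2472 and 4023 CPM in CD51+CD140a+ MSCs, 1578, 925 and 1509 CPM in Itga8+ MSCs, 1187, 1359.9 and 847 CPM in Itga8- Alcam+ BLCs and 749.7, 892 and 518 CPM in Sca-1+ MSCs. The CD51+CD140a+ libraries were again above all others, and the Itga8+ libraries lay above the Sca-1+ libraries without overlap. Over CD51+CD140a+ MSCs, the log2 fold change was -1.14 ± 0.34 in Itga8+ MSCs, -1.39 ± 0.34 in Itga8- Alcam+ BLCs and -2.04 ± 0.35 in Sca-1+ MSCs (edgeR adjusted p = 0.0244, 0.00929 and 0.00127). The difference of Itga8+ MSCs over Sca-1+ MSCs was 1.86-fold (edgeR adjusted p = 0.0904), below the required fold of 2. Without the pair of libraries that stood apart, that log2 difference was 1.13 (edgeR adjusted p = 0.0189) and was called, as it was without Itga8+ replicate 2 alone (1.09). The difference between Itga8+ and CD51+CD140a+ MSCs was -0.91 (edgeR adjusted p = 0.0377) without the pair, -0.91 without Itga8+ replicate 2 and -0.86 without CD51+CD140a+ replicate 3, and was not called in any of these. Jun is overlapped over 7.28% of its length by Junos on the other strand, whose counts ran from 1882 to 21623 with their lowest and highest values in the same libraries as those of Jun, and the counting is not stated to use strand.

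Junb, at chr8:84974484-84978718 on the minus strand, encodes a JUN family subunit that can oppose JUN at some targets. It was at 1688, 2858 and 2819 CPM in CD51+CD140a+ MSCs against 1074, 819.6 and 1042 CPM in Itga8+ MSCs, 971, 1079.7 and 1089 CPM in Itga8- Alcam+ BLCs and 1097, 1355 and 995 CPM in Sca-1+ MSCs. The 9 bone-fragment libraries lay within a narrow band under the lowest CD51+CD140a+ library. The averaged log2 difference was -1.22 ± 0.21 (edgeR adjusted p = 0.000833), and none of the 3 pairs of bone-fragment populations was called. In Sca-1+ MSCs the log2 difference of -1.10 was under a fold of 2 without CD51+CD140a+ replicate 2 (-0.97) or replicate 3 (-0.98). Prdx2 on the other strand overlaps 7.52% of its exons.

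Fos, which also encodes an AP-1 subunit, was called in none of the 7 comparisons. In CD51+CD140a+ MSCs it was at 4928, 6144 and 6236 CPM, in Sca-1+ MSCs at 3588, 3536 and 3325 CPM, in Itga8- Alcam+ BLCs at 2119, 3158 and 5207 CPM and in Itga8+ MSCs at 2381, 6076 and 3900.3 CPM. The groups overlapped except for Sca-1+ MSCs, whose 3 libraries lay below the 3 CD51+CD140a+ libraries (exact permutation test, two-sided p = 0.1, the smallest 3 against 3 libraries can give). The highest Itga8+ and Itga8- Alcam+ values came from the libraries that stood apart. The averaged log2 difference from CD51+CD140a+ MSCs was -0.65 ± 0.30 (edgeR adjusted p = 0.123) with all libraries and -0.90 (edgeR adjusted p = 0.00303) without those libraries, in both cases under a fold of 2. Between Itga8- Alcam+ BLCs and CD51+CD140a+ MSCs the difference was -0.72 (edgeR adjusted p = 0.165) with all libraries and -1.13 (edgeR adjusted p = 0.00677) without them, which was called. Leaving out Itga8- replicate 3 alone gave -1.13 (edgeR adjusted p = 0.0456), also called.

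Among these 4 AP-1 subunits, Fos made up the largest share of transcripts per exon length in each library. Its share of their summed TPM averaged 54.5 ± 3.46% for CD51+CD140a+ MSCs, 66.7 ± 3.63% for Sca-1+ MSCs, 61.9 ± 11.5% for Itga8- Alcam+ BLCs and 64.6 ± 14.7% for Itga8+ MSCs (SD, n = 3), and the share of Fosb lay between 0.353% and 2.55% in the 12 libraries. The TPM ratio of Jun to Junb was 0.448 ± 0.0632 in Sca-1+ MSCs, below every other library, and averaged 0.784 to 0.973 in the other populations. The ratio of Fos to Fosb was 226 in Itga8+ replicate 2 against 29.6 and 91.4 in its replicates, and 121 in Itga8- replicate 3 against 22.4 and 41.6.

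Egr1, on chromosome 18, encodes a zinc finger factor induced by growth factor and stress signals through the MAP kinase pathway. It was at 5839.8, 6352 and 7376 CPM in CD51+CD140a+ MSCs. The other libraries ranged from 1167 CPM in Itga8+ replicate 2 to 3284 CPM in Sca-1+ replicate 2, with Itga8+ MSCs at 2390.2, 1167 and 2733 CPM, Itga8- Alcam+ BLCs at 2107, 3038 and 1992 CPM and Sca-1+ MSCs at 2745, 3284 and 2814 CPM. The CD51+CD140a+ group was separate from all 9 others. Its log2 differences were -1.64 ± 0.33 for Itga8+ MSCs, -1.45 ± 0.33 for Itga8- Alcam+ BLCs and -1.15 ± 0.32 for Sca-1+ MSCs (edgeR adjusted p = 0.00312, 0.00588 and 0.0292). The last was not called without Sca-1+ replicate 1 or replicate 3, with edgeR adjusted p of 0.105 and 0.102. None of the 3 pairs of bone-fragment populations was called.

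Atf3, a repressor and activator of stress genes at chr1:191170296-191218039 on the minus strand, had a different order. It was highest in Itga8- Alcam+ BLCs, at 958, 952 and 1708 CPM, and lowest in CD51+CD140a+ MSCs, at 305, 268 and 402 CPM. Itga8+ MSCs, at 561, 658 and 426 CPM, and Sca-1+ MSCs, at 559, 586 and 444 CPM, overlapped each other and lay between the others without overlapping either. In Itga8- Alcam+ BLCs Atf3 was 3.71-fold higher than in CD51+CD140a+ MSCs (log2 1.89 ± 0.32, edgeR adjusted p = 0.000922) and 2.28-fold higher than in Sca-1+ MSCs (log2 1.19 ± 0.31, edgeR adjusted p = 0.0185). It was lower in Itga8+ MSCs than in Itga8- Alcam+ BLCs by a log2 difference of -1.14 ± 0.31 (edgeR adjusted p = 0.0873). That call was lost in 17 of the 23 other settings, including the omission of any single library except Itga8+ replicate 2 and Itga8- replicate 2. Without a Sca-1+ or CD51+CD140a+ library the difference stayed at -1.14 and the adjusted p was between 0.11 and 0.143 (edgeR). Without Itga8+ replicate 1 or Itga8- replicate 1 it was -1.16 and -1.27, and without Itga8+ replicate 3 or Itga8- replicate 3 it was -0.98 and -0.80. Without the pair of libraries that stood apart the difference was -0.92 (edgeR adjusted p = 0.11). Without them the difference between Itga8- Alcam+ BLCs and Sca-1+ MSCs was 0.85 (edgeR adjusted p = 0.0200) and the averaged difference from CD51+CD140a+ MSCs 0.96 (edgeR adjusted p = 0.00233) in place of 1.12, both under a fold of 2. Omitting Itga8- replicate 3 alone gave 0.85 for the first, and omitting CD51+CD140a+ replicate 2 alone gave 0.996 for the second, again not called. The TPM ratio of Atf3 to Jun was 0.148 to 0.19 in CD51+CD140a+ MSCs and 0.418 to 1.27 in the other libraries except Itga8- replicate 3, where it was 2.98 against 1.20 and 1.04 in its replicates.

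Ier2, a short gene of 1 exon with 1522 bases on chromosome 8, encodes a nuclear early response protein. It was at 494, 448 and 802 CPM in Itga8- Alcam+ BLCs, 358, 593 and 459 CPM in CD51+CD140a+ MSCs, 303, 394 and 252 CPM in Itga8+ MSCs and 294, 348 and 319 CPM in Sca-1+ MSCs. All Itga8- Alcam+ libraries were above all Itga8+ and Sca-1+ libraries, but overlapped the CD51+CD140a+ libraries. The log2 difference between Itga8- Alcam+ BLCs and Sca-1+ MSCs was 0.86 ± 0.30 (edgeR adjusted p = 0.0638), under a fold of 2, and Ier2 was called in none of the 7 comparisons. For Atf3 and Ier2 alike, the part of the neutrophil marker sums, which were higher in both Alcam+ populations, was not tested.

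Hspa1a and Hspa1b, the inducible HSP70 genes, were higher in Itga8- Alcam+ BLCs and Sca-1+ MSCs than in CD51+CD140a+ MSCs. Hspa1a was at 17.8, 28.2 and 28.8 CPM in CD51+CD140a+ MSCs, 43.9, 29.9 and 42.6 CPM in Itga8+ MSCs, 62.6, 98.6 and 126 CPM in Itga8- Alcam+ BLCs and 74.5, 88.6 and 67.3 CPM in Sca-1+ MSCs. Hspa1b was at 15.4, 42.7 and 26.1 CPM, 51.8, 27.3 and 56.2 CPM, 55.3, 99.6 and 96.3 CPM, and 81.3, 105 and 76.8 CPM in the same populations. The CD51+CD140a+ libraries lay below all Itga8- Alcam+ and Sca-1+ libraries for both genes, and the Itga8+ libraries overlapped the Itga8- Alcam+ libraries for Hspa1b. Over CD51+CD140a+ MSCs, Hspa1a and Hspa1b had log2 fold changes of 1.94 ± 0.33 and 1.58 ± 0.41 in Itga8- Alcam+ BLCs (edgeR adjusted p = 0.00102 and 0.0134) and of 1.62 ± 0.33 and 1.65 ± 0.41 in Sca-1+ MSCs (edgeR adjusted p = 0.00401 and 0.0158). In Itga8+ MSCs the values were 0.64 ± 0.32 and 0.68 ± 0.41, neither called, and Hspa1b was called at 1.12 without CD51+CD140a+ replicate 2. Over Sca-1+ MSCs the values in Itga8+ MSCs were -0.98 ± 0.32 and -0.96 ± 0.41, neither called. There Hspa1a was called at -1.01 to -1.09 without Itga8+ replicate 1 or 3 or Itga8- replicate 1 or 2. Hspa1b was called at -1.18 without Itga8+ replicate 3. Only 33.7% of the 50-base words of Hspa1a and 37.7% of those of Hspa1b occur in no other gene, most of the rest being shared between the pair and with Gm20481, so the split of reads between them is uncertain.

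Counted together as 1 gene, an alternative chosen after seeing the data, the HSP70 pair was at 33.2, 70.9 and 54.9 CPM in CD51+CD140a+ MSCs and at 118, 198 and 223 CPM in Itga8- Alcam+ BLCs. It was at 156, 194 and 144 CPM in Sca-1+ MSCs and at 95.7, 57.2 and 98.8 CPM in Itga8+ MSCs. The pair was 3.39-fold higher in Itga8- Alcam+ BLCs (log2 1.76 ± 0.36, edgeR adjusted p = 0.00345) and 3.10-fold higher in Sca-1+ MSCs (log2 1.63 ± 0.36, edgeR adjusted p = 0.00727) than in CD51+CD140a+ MSCs. Itga8+ MSCs were not called against any of the other populations. The log2 difference was 0.66 ± 0.35 over CD51+CD140a+ MSCs (edgeR adjusted p = 0.172), -0.97 ± 0.35 over Sca-1+ MSCs (edgeR adjusted p = 0.0839, under a fold of 2) and -1.10 ± 0.36 over Itga8- Alcam+ BLCs (edgeR adjusted p = 0.170). Hspa1a alone was called lower in Itga8+ MSCs than in Itga8- Alcam+ BLCs (log2 -1.30 ± 0.32, edgeR adjusted p = 0.0578), a call lost in 11 of the 23 other settings, including the omission of any Itga8+ library, Itga8- replicate 2 or 3, or Sca-1+ replicate 1, and at a difference of -0.87 (edgeR adjusted p = 0.226) without the pair of libraries that stood apart. Adding Gm20481 to the sum left the calls as they were in the 7 comparisons.

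Dnajb1, at chr8:83608193-83612653 on the plus strand, did not share the order of the HSP70 genes. It was at 194, 206 and 196 CPM in Sca-1+ MSCs, the narrowest spread of any member in any population. The other groups were all above this, at 567, 326 and 476 CPM in Itga8+ MSCs, 420.1, 329 and 387 CPM in Itga8- Alcam+ BLCs and 436, 629 and 423 CPM in CD51+CD140a+ MSCs. Compared with Sca-1+ MSCs, Itga8+ MSCs had a 2.30-fold higher level (log2 1.20 ± 0.27, edgeR adjusted p = 0.0125). It was lower in Sca-1+ MSCs than in CD51+CD140a+ MSCs by a log2 difference of -1.32 ± 0.28 (edgeR adjusted p = 0.00511). The difference of 0.93 ± 0.27 between Itga8- Alcam+ BLCs and Sca-1+ MSCs passed the adjusted p (0.0315, edgeR) but not the fold threshold, and so did the averaged difference of -0.61 ± 0.21 from CD51+CD140a+ MSCs (edgeR adjusted p = 0.0501).

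The 10 genes did not move as 1 group across the 12 libraries. Pearson's r of log2(CPM + 1) was 0.72 to 0.91 among Fosb, Jun, Junb and Egr1, 0.95 between Hspa1a and Hspa1b and 0.78 between Atf3 and Hspa1a. Fos had r of 0.18 to 0.55 with Fosb, Jun, Junb and Egr1, and Dnajb1 had r of -0.52 and -0.48 with Hspa1a and Hspa1b. These points share 4 populations and their library properties, so the values are a description. In the libraries that stood apart the members at the ends of the range of exon length were shifted in opposite directions, and those between were mixed. In Itga8+ replicate 2, Ier2, Atf3 and Fos, with 1522, 2154 and 2352 bases, were above the mean of the replicates by log2 differences of 0.50, 0.41 and 0.95, but Junb, with 2301 bases, was at -0.37. The heat shock genes Hspa1a, Hspa1b and Dnajb1, with 2967, 2803 and 3204 bases, were at -0.52, -0.96 and -0.68, Jun was at -0.74, and Egr1 and Fosb, with 4484 and 6243 bases, were at -1.13 and -1.18. In Itga8- replicate 3, Ier2, Atf3 and Fos were at 0.77, 0.84 and 0.98, Junb at 0.09, Hspa1a, Hspa1b and Dnajb1 at 0.64, 0.31 and 0.05, and Jun, Egr1 and Fosb at -0.59, -0.37 and -0.98. The heat shock genes thus had opposite signs in the pair of libraries. The differences of Fosb, Jun, Junb and Egr1 from CD51+CD140a+ MSCs were in the same direction without these libraries. Over all settings tried their averaged log2 differences ran from -2.11 to -1.71 for Fosb, from -1.70 to -1.23 for Jun, from -1.43 to -1.09 for Junb and from -1.61 to -1.27 for Egr1.

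**Figure D3:**
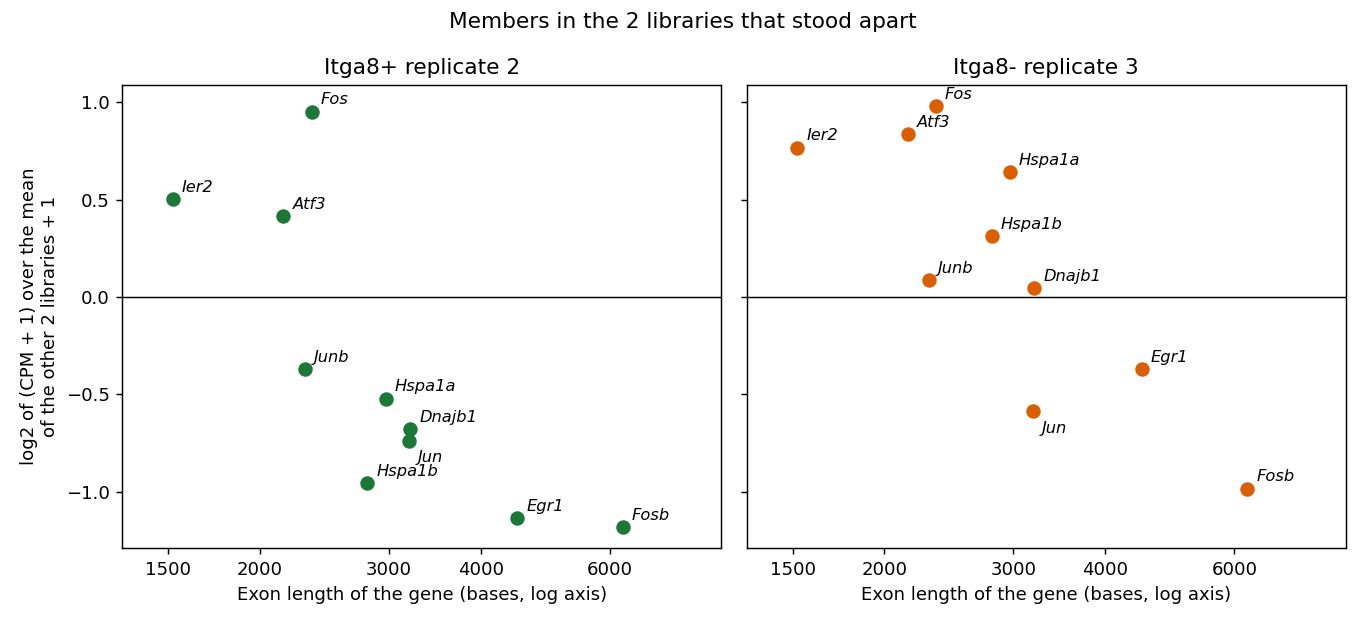
Level of each gene in the 2 libraries that stood apart, as the log2 ratio to the mean of the other 2 libraries of the population (CPM + 1), against the exon length of the gene in bases on a log axis. Ier2, Atf3 and Fos lie above 0 in both, Jun, Egr1 and Fosb lie below 0 in both, and the other 4 genes lie below 0 in Itga8+ replicate 2 and above 0 in Itga8- replicate 3.

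Further stress genes were counted in lists that hold none of the 10 members. Of 42 other early response genes, 17 were called lower (background 15.3%) and 8 higher (background 15.9%) in the averaged bone-fragment populations than in CD51+CD140a+ MSCs. Their median log2 difference was -0.55 against 0.10 over all genes tested. Without the pair of libraries that stood apart the counts were 19 and 9. Taken 1 population at a time, 18 were lower (background 9.30%) and 3 higher (background 11.2%) in Sca-1+ MSCs, and 18 were lower (background 14.3%) and 8 higher (background 21.2%) in Itga8+ MSCs. For Itga8- Alcam+ BLCs the counts were 11 (background 14.9%) and 10 (background 20.4%). Tnfaip3, an inhibitor of NF-kB signalling, was at 896, 1087 and 1377 CPM in CD51+CD140a+ MSCs and at most 99.1 CPM elsewhere (log2 -4.92 ± 0.45, edgeR adjusted p = 7.67e-06), and Irf1, an interferon-responsive factor, differed by -2.95 ± 0.24 (edgeR adjusted p = 2.51e-06). Zfp36, which encodes an mRNA-destabilising protein, and Nr4a1, an orphan nuclear receptor, were lower by -1.97 and -1.67, both called. Dusp1, the phosphatase that shuts off MAP kinases, was at -0.94 ± 0.25 (edgeR adjusted p = 0.0135), under a fold of 2. It was called at -1.01 without the pair of libraries and at -1.20 without CD51+CD140a+ replicate 1. The opposite direction was seen for Ptgs2, the inducible cyclooxygenase, which averaged 354 CPM in Itga8- Alcam+ BLCs, 217 CPM in Sca-1+ MSCs, 36.7 CPM in Itga8+ MSCs and 14.3 CPM in CD51+CD140a+ MSCs (averaged log2 3.31 ± 0.46, edgeR adjusted p = 0.000212), and for Nr4a2 (2.72 ± 0.30). The difference of Ptgs2 between Itga8+ and CD51+CD140a+ MSCs was 1.36 ± 0.47 (edgeR adjusted p = 0.0459), and its call was lost without Itga8+ replicate 3 (0.81, edgeR adjusted p = 0.161) or CD51+CD140a+ replicate 2 or 3 (edgeR adjusted p = 0.117 and 0.118).

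Among 9 other AP-1 genes, 2 were called higher and 2 lower in the averaged populations, against the backgrounds of 15.9% and 15.3%, and 3 and 1 without the pair of libraries that stood apart. By population the counts were 5 (background 20.4%) and 1 (background 14.9%) in Itga8- Alcam+ BLCs. They were 3 (background 21.2%) and 2 (background 14.3%) in Itga8+ MSCs, which became 4 and 1 without Itga8+ replicate 2. In Sca-1+ MSCs they were 2 (background 11.2%) and 2 (background 9.30%). Differences between these counts were not tested. Fosl1, which encodes the late subunit FRA1, averaged 11.2 CPM in CD51+CD140a+ MSCs, 47.5 CPM in Sca-1+ MSCs, 258 CPM in Itga8- Alcam+ BLCs and 158 CPM in Itga8+ MSCs (averaged log2 3.47 ± 0.35, edgeR adjusted p = 1.75e-05). Batf3 was at 5.70 to 12.4 CPM in the Itga8+ and Itga8- Alcam+ libraries, at 0.111 to 0.609 CPM in Sca-1+ MSCs and at 0.0820, 0 and 0 CPM in CD51+CD140a+ MSCs, within the level that 3 counts give. Jund and Jdp2 were lower by -1.19 ± 0.38 and -1.44 ± 0.22. Jund was at -0.96 without the pair of libraries that stood apart, and was not called without CD51+CD140a+ replicate 2 or 3 (edgeR adjusted p = 0.148 and 0.119). The neutrophil marker sums, like Fosl1 and Batf3, were higher in the Alcam+ populations, and their part in these levels was not tested. Of 9 upstream factors of these genes, 0 were called in the averaged populations by edgeR and in Sca-1+ MSCs, with an averaged median of -0.47. The 3 called lower in Itga8+ MSCs (background 14.3%) were Mrtfa, Mrtfb and Creb1. All 3 lost their call without Itga8+ replicate 1, Itga8+ replicate 2 or CD51+CD140a+ replicate 3, and the count was 5 without Itga8+ replicate 3. Srf was called higher there without Itga8+ replicate 2 (1.29, edgeR adjusted p = 0.0292). In Itga8- Alcam+ BLCs 2 were lower (background 14.9%) and 1 higher (background 20.4%). These counts ran from 1 to 3 and from 0 to 1 when 1 library was left out.

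Of 22 heat shock genes outside the members, 7 were called higher (background 15.9%) and 1 lower (background 15.3%) in the averaged populations. Their median log2 difference was 0.69. Hspa1a was also called higher in that comparison, and Dnajb1 was not called. By population, 6 of the 22 were called higher in Sca-1+ MSCs (background 11.2%), 7 in Itga8- Alcam+ BLCs (background 20.4%) and 9 in Itga8+ MSCs (background 21.2%). The medians were 0.23, 0.76 and 0.88, and differences between these counts were not tested. Leaving out 1 library gave 5 to 6, 4 to 8 and 6 to 9, the 4 without CD51+CD140a+ replicate 2. Without the pair of libraries that stood apart 6 were called higher and 1 lower in the averaged comparison. The small heat shock protein genes Cryab and Hspb8 had the widest differences, at averaged log2 values of 6.79 ± 0.90 and 5.63 ± 0.41 (edgeR adjusted p = 0.000132 and 1.27e-06). Cryab was at 201 CPM in Itga8+ replicate 2 and 996 CPM in Itga8- replicate 3 against 37.9 to 256 CPM in the other 7 bone-fragment libraries, and its difference was 6.02 without that pair. Hsph1, the HSP110 exchange factor of HSP70, was higher by 1.30 ± 0.28 (edgeR adjusted p = 0.00407), and Hsp90aa1, the inducible HSP90, by 1.33 ± 0.51 (edgeR adjusted p = 0.0717). The latter was at 430.5 CPM in Itga8+ replicate 2 and 394 CPM in Itga8- replicate 3, against 49.7 to 165 CPM in the other 10 libraries. Without the pair its difference was 0.75 (edgeR adjusted p = 0.0155), under a fold of 2. Its call was also lost without Itga8+ replicate 2 alone (0.998), and on the edgeR adjusted p, of at most 0.209, without Sca-1+ replicate 1 or 2 or any CD51+CD140a+ library. Hspa8, the constitutive HSC70, was at -0.16 ± 0.25 (edgeR adjusted p = 0.674), and Dnajb4, a further HSP40, was called lower at -1.22 ± 0.34.

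**Figure D4:**
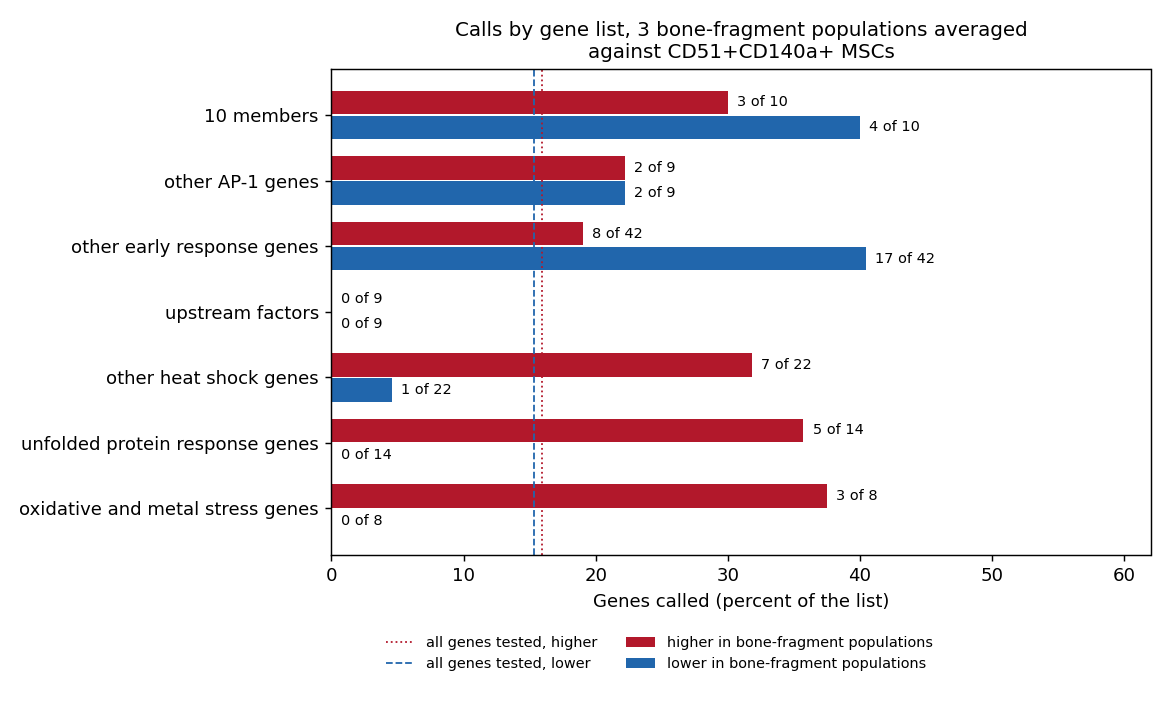
Share of each gene list that was called higher or lower in the averaged bone-fragment populations than in CD51+CD140a+ MSCs, in percent, with the counts beside the bars; the vertical lines give the same shares over all 18648 genes tested, 15.9% higher and 15.3% lower. The members and the other early response genes had 4 of 10 and 17 of 42 genes lower, and the other heat shock genes had 1 of 22.

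For the unfolded protein response, 5 of 14 genes were called higher (background 15.9%) and 0 lower (background 15.3%) in the averaged populations. The median was 0.62, and 4 were called higher without the pair of libraries that stood apart. Against backgrounds of 20.4% in Itga8- Alcam+ BLCs and 21.2% in Itga8+ MSCs, 6 were higher in each, with medians of 0.96 and 0.85. Sca-1+ MSCs had 1 of 14, under the background of 11.2%, and a median of 0.16. Differences between these counts were not tested. Chac1, a target of ATF4, was at 40.8, 43.3 and 125 CPM in Itga8- Alcam+ BLCs, the highest being replicate 3, at 3.87 to 4.92 CPM in Sca-1+ MSCs and at most 0.934 CPM in CD51+CD140a+ MSCs. Trib3, a further target, was at 50.9, 29.0 and 41.7 CPM in Itga8- Alcam+ BLCs and at most 1.42 CPM in CD51+CD140a+ MSCs, while Hspa5, the endoplasmic reticulum HSP70, was at -0.10 ± 0.22 (edgeR adjusted p = 0.768). Of 8 oxidative and metal stress genes, 3 were higher (background 15.9%) and 0 lower (background 15.3%) in the averaged populations, with a median of 1.06. By population, 3 were higher in Itga8+ MSCs (background 21.2%), 4 in Itga8- Alcam+ BLCs (background 20.4%) and 2 in Sca-1+ MSCs (background 11.2%). The medians were 1.07, 1.54 and 0.33. Without the pair of libraries that stood apart these counts were 2, 4 and 3, and the 2 in Sca-1+ MSCs were 1 to 3 when 1 library was left out. Srxn1, which repairs oxidised peroxiredoxins, averaged 69.8 CPM in CD51+CD140a+ MSCs, 173 CPM in Sca-1+ MSCs, 1870.5 CPM in Itga8- Alcam+ BLCs and 1005 CPM in Itga8+ MSCs. Slc7a11, the cystine importer, was called higher but reached at most 3.15 CPM in any library.

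Between Itga8+ MSCs and Itga8- Alcam+ BLCs, no gene of these lists was called higher in Itga8+ MSCs, and 5 were called lower. They were 4 of the 42 other early response genes and 1 of the 8 oxidative and metal stress genes, against a background of 2.16% lower. The other lists had none. Ptgs2 was 9.65-fold lower (log2 -3.27 ± 0.50, edgeR adjusted p = 0.00379), at 26.6, 23.4 and 59.9 CPM against 169, 582 and 309.9 CPM. Hmox1, the haem oxygenase, was 6.37-fold lower (log2 -2.67 ± 0.44, edgeR adjusted p = 0.00627), at 84.5, 60.6 and 81.1 CPM against 315, 312 and 813 CPM. Its difference was -2.05 without Itga8- replicate 3 and -1.89 without the pair, both called. Ier3 was 5.02-fold lower (edgeR adjusted p = 0.0524), with 3159 CPM in Itga8- replicate 3 against 683 and 749.6 CPM in its replicates. It was not called without Itga8- replicate 3 (-1.24, edgeR adjusted p = 0.167) or Itga8+ replicate 1 or 3 (edgeR adjusted p = 0.18 and 0.133), and was called at -1.62 (edgeR adjusted p = 0.0164) without the pair. Ier5 and Errfi1, the other early response genes called, had log2 differences of -1.40 and -1.16. Both calls were lost without Itga8+ replicate 1 or 2, Itga8- replicate 2 or 3, Sca-1+ replicate 1 or CD51+CD140a+ replicate 1, and without the pair, and that of Errfi1 also without CD51+CD140a+ replicate 2 or 3. Only Ptgs2 of the 4 was called without Itga8+ replicate 1 or without Itga8- replicate 3. The medians of the lists ran from -0.55 for the other AP-1 genes to 0.11 for the other heat shock genes, against 0.08 over all genes. Without the pair of libraries that stood apart, 2 of the other early response genes were called lower in place of 4, and 2 of the other heat shock genes, Cryab and Dnajb4, in place of 0.

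The genes most like Fos across the 12 libraries, by Pearson's r of log2(CPM + 1) over 9139 genes with at least 10 CPM on average, were Oaz2, Btrc, Oat, BC005561 and Mapk8ip3, with r of 0.89 to 0.91. Those most like Dnajb1 were Nek6, Stk39, Ints14, Lrrn1 and Runx3, with r of 0.91 to 0.94. The other members were not in this search.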

How the data were processed

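The authors deposited 1 table of raw counts per library, reads per Ensembl gene without normalization, for 12 RNA-seq libraries made with SMART-Seq v4 and Nextera XT kits. The submitters' processing notes name FastQC 0.11.7, Trimmomatic 0.38, HISAT2 2.1.0, SAMtools 1.9 and featureCounts 1.6.3 with mm10, whereas the study's methods name TopHat and Bowtie2. Strand setting, annotation release and the handling of reads with several matches are not given in the sources used here. Of the 49585 identifiers, 49326 were in GENCODE M21. Populations and replicate numbers came from the labels.

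All 12 libraries were fitted in 1 edgeR 4.0.16 quasi-likelihood model in R 4.3.3 with TMM scaling, over the 18648 genes that reached 0.5 CPM in 1 library or more. Adjusted p-values are two-sided and Benjamini-Hochberg adjusted over all genes tested, and calls need an adjusted p under 0.1 and a fold change above 2, thresholds chosen after the study's methods. Standard errors are on the log2 scale and were derived from the log2 fold change and the F statistic of the test, so they carry the same information as its p-value. Levels are CPM on effective library sizes, and genes were compared with each other only by TPM from the union of exon lengths. Depth sets a floor of 3 counts at 0.0820 to 0.180 CPM, which covers counting error only, since duplicates from PCR were counted as reads. The script was tested on simulated data. Figures used matplotlib 3.10.9 in Python 3.11.15.

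The members and lists were chosen with earlier results of these data known. The text names all members, 7 fixed stress genes, for each list the called genes with the up to 2 most positive and 2 most negative fold changes in the averaged comparison and between Itga8+ MSCs and Itga8- Alcam+ BLCs, and the 5 genes most like Fos and Dnajb1. Marker genes of the libraries were named after their values were seen. Alternatives were DESeq2 1.42.0, limma 3.58.1, other scalings, filters and thresholds, a replicate block, a fit restricted to the populations in a comparison, thinning to the smallest total and leaving out each library. Leaving out Itga8+ replicate 2 and Itga8- replicate 3 together, and counting the HSP70 genes as 1, were added after seeing the data.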

Additional observations from a re-analysis of the deposited data

How the results depend on the processing

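No member's difference changed sign where it was called, under any alternative run. Over the 7 comparisons, 131 recomputed counts of members called stayed within 1.5 times the reported count, 22 were lower and 7 higher. For Itga8+ MSCs over Itga8- Alcam+ BLCs the count of 2 was 1 with RLE size factors and with no filter beyond 1 count, and 0 with library totals alone, in a fit of only the populations compared, at an adjusted p under 0.05 and without both Itga8+ replicate 2 and Itga8- replicate 3. Leaving out 1 library gave 0 to 1. For Itga8+ MSCs over Sca-1+ MSCs the count of 1 was 2 in a fit of only the populations compared and without both libraries, and 1 to 3 when 1 library was left out. For Itga8- Alcam+ BLCs over Sca-1+ MSCs the count of 1 was 0 with library totals alone and without both libraries, and 0 to 1 when 1 library was left out, with 0 without Itga8- replicate 3. The cause was not tested. The averaged comparison gave 6 or 7 calls under all alternatives.

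Library totals alone moved the median log2 difference of all genes in the averaged comparison from 0.10 to -0.10, and the split of calls from 2966 higher and 2844 lower to 2494 and 3559. For Itga8- Alcam+ BLCs over CD51+CD140a+ MSCs they moved it from 3808 and 2770 to 2934 and 4090, for Itga8- Alcam+ BLCs over Sca-1+ MSCs from 2706 and 2224 to 2171 and 2929, and for Itga8+ MSCs over Itga8- Alcam+ BLCs from 310 and 402 to 495 and 313. The last comparison gave 597 and 606 calls with DESeq2, 107 and 169 in a fit of only those populations, 199 and 265 at an adjusted p under 0.05, 197 and 236 without Itga8- replicate 3, 259 lower without Itga8+ replicate 1 and 203 higher without Itga8- replicate 1. Itga8+ MSCs over Sca-1+ MSCs, with 2397 and 1658 calls, gave 1588 and 1314 in a fit of only those populations, 1578 and 1128 at an adjusted p under 0.05, 3110 and 2768 without Itga8+ replicate 3, 1514 and 1128 without Sca-1+ replicate 1, 1358 and 1028 without replicate 2 and 1376 and 1116 without replicate 3 of that population.

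With the replicate block, the count of members called between Itga8+ MSCs and Itga8- Alcam+ BLCs was 0, and all genes called there were 188 higher and 245 lower. Whether the replicate numbers pair the samples could not be decided. Of 18 pairs of libraries with the same number, 5 had a correlation of deviations over 0.1, with a range from -0.74 to 0.34. Of 12 libraries, 5 correlated best with their own number. The highest correlations were 0.78 between Itga8+ replicate 3 and Itga8- replicate 2, and 0.75 between Itga8+ replicate 2 and Itga8- replicate 3. Each of these joins libraries shifted the same way by transcript length, which can mask a pairing.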
